A study of Homo sapiens with 74 samples.

Results

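TFIID, the other general transcription factors and RNA polymerase II (Pol II) were examined as 1 group of genes in 2 established human leukaemia cell lines with erythroid features. K562 comes from chronic myeloid leukaemia in blast crisis and HEL from erythroleukaemia. Members were chosen by symbol alone: TAF1 to TAF15 with their B and L paralogues (TAF1B, TAF1L, TAF5L and TAF6L left out), TBP, TBPL1, the GTF2A, GTF2B, GTF2E, GTF2F and GTF2H genes, ERCC2, ERCC3, CDK7, CCNH, MNAT1 and POLR2A to POLR2L. The choice used no measured value and found 52 of the 28131 genes in each count table. They comprised 18 TFIID subunits, the TBP-related factor TBPL1, 3 TFIIA genes, GTF2B, 2 TFIIE, 2 TFIIF, 10 TFIIH core and 3 TFIIH kinase genes, and 12 Pol II subunits.

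Polyadenylated RNA was sequenced in 12 distinct libraries. K562 was represented by 2 wild type controls, 3 DOT1L-/- libraries (DOT1L KO) and 3 ENL-/- libraries (ENL KO). HEL was represented by 2 controls and 2 libraries with DOT1L knockdown (DOT1L KD). DOT1L is the methyltransferase of lysine 79 of histone H3, and ENL, whose gene symbol is MLLT1, is a reader of acetylated histones that binds DOT1L. A K562 control column labelled replicate 3 did not differ from replicate 2 in a single gene, and both columns were treated as 1 sample. No drug treatment or time point is named in the labels. They name neither the knockdown method nor whether a knockout is 1 clone, and do not say that replicates came from separate cultures, so p-values measure only the spread between these libraries. The comparisons ask what happens to the messenger RNA of the initiation machinery when DOT1L or its partner is lost.

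Pol II cannot find or open a promoter alone. TFIID, which is TBP with the TAF proteins, recognises the core promoter. TFIIA stabilises TBP on DNA and TFIIB bridges TBP and Pol II. TFIIF arrives with Pol II, and TFIIE recruits TFIIH, whose ATPase ERCC3 opens the DNA and whose CDK7, CCNH and MNAT1 module phosphorylates the C-terminal domain of POLR2A. Several TAFs contain histone folds and pair with one another, and some are shared with the SAGA coactivator. These proteins serve nearly all protein-coding genes, and some have paralogues with a narrower use, such as TAF4B for TAF4.

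A promoter was found for 42 of the 52 members in RefSeq (GRCh38.p14). The following sequences are the 100 bases before the RefSeq start, 5′ to 3′ on the gene's strand. They are shown as examples of how members differ in the 4 motifs searched, for 6 members that are described library by library below and whose windows hold no exon listed in the count tables. Capitals mark a motif on either strand. The TATA box was searched as TATAAA. The CCAAT box was searched by the letters of its name. For the GC box the letters were GGGCGG, and the ETS core was read as CCGGAA.
TAF4B, chr18:26226345-26226444, plus strand: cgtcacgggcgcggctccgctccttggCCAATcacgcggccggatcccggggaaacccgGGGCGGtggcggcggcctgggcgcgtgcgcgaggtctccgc
TAF7, chr5:141320785-141320884, minus strand: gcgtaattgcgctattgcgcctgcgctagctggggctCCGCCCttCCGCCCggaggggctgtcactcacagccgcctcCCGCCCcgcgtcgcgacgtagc
TAF11, chr6:34888072-34888171, minus strand: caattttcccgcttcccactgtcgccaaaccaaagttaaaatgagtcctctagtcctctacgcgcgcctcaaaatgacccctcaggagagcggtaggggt
GTF2B, chr1:88891568-88891667, minus strand: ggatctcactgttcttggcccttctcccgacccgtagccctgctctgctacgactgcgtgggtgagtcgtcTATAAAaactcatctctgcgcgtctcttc
POLR2A, chr17:7484266-7484365, plus strand: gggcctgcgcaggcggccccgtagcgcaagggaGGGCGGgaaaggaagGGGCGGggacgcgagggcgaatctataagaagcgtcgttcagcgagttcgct
POLR2L, chr11:842530-842629, minus strand: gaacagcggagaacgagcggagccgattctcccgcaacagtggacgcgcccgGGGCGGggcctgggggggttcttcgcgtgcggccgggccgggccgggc

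The first base of the TATA box of GTF2B lay 29 bases before the start. TAF4B had a CCAAT box 73 and a GC box 41 bases before it, TAF7 had GC boxes at 63, 55 and 22 bases, POLR2A had GC boxes at 67 and 52 bases, and POLR2L had a GC box at 48 bases. None of the 4 motifs was in the TAF11 window. The RefSeq start of TAF4B lies 438 bases upstream of the first exon in the count table. In the 250 bases before the start, searched on both strands, GTF2B was the 1 member of 42 with a TATA box (2.38%), beside 11.2% of the 27305 promoters in RefSeq and 5.54% of the 10721 whose genes were tested in K562. A GC box was found in 24 members (57.1%), beside 42.2% of all promoters and 66.2% of those tested. An ETS core was found in 21 members (50.0%), beside 14.8% and 24.8%, and a CCAAT box in 10 (23.8%), beside 33.0% and 35.0%. Only the exact letters were counted, so a near match such as TATAAG in the POLR2A window was not. These matches describe letters in a window and are not evidence of a bound factor.

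Libraries held between 15404944 and 29236703 counted fragments in K562 and between 12151495 and 12811688 counted reads in HEL. Levels are given in CPM, which are counts divided by the TMM-scaled library total, and 3 counts, the limit that a count of 0 allows, were worth 0.101 to 0.244 CPM depending on the library. Changes are log2 fold changes with their standard error (SE) from the quasi-likelihood test of edgeR. P-values were adjusted over all genes tested by Benjamini and Hochberg's method, with a threshold of 0.05. DOT1L stood at 270 and 256 CPM in the K562 controls and at 186, 176 and 184 CPM in the DOT1L KO. In HEL it stood at 97.5 and 87.4 CPM in the controls and at 29.1 and 30.0 CPM in the KD. MLLT1 stood at 214 and 219 CPM in the K562 controls and at 153, 157 and 154 CPM in the ENL KO. All 10 erythroid marker genes were above 0 in every library, and their summed level moved with depletion: 4276 to 4625 CPM in K562 controls, 8100 to 8427 CPM in the DOT1L KO, 5392 to 5746 CPM in the ENL KO, 4860 to 4974 CPM in HEL controls and 6716 to 7398 CPM in the KD. The 6 monocytic markers summed to between 37.2 and 39.4 CPM in K562 controls, 299.8 and 331 CPM in the DOT1L KO and 20.0 and 21.1 CPM in the ENL KO. Lymphoid markers summed to 54.0 to 55.6 CPM in K562 controls, 17.4 to 21.8 CPM in the DOT1L KO, 62.2 to 73.2 CPM in the ENL KO and 10.1 to 12.9 CPM in HEL, with 1 to 4 of the 6 genes at 0 in each library, and fibroblast and epithelial markers to 681 to 801 CPM in K562 and 27.1 to 45.8 CPM in HEL. The part of these markers in the results below was not tested. In bulk RNA a change in the mix of cells and a change in RNA per cell cannot be told apart. HEL replicates differed little beyond counting noise (chi-square per degree of freedom 1.33 and 1.48), while K562 replicates differed by more (4.24 to 10.2), so that smaller changes passed the test in HEL. The labels of the ENL KO name no sequencing lane while those of the other K562 libraries name a shared one, so a batch and the ENL knockout cannot be told apart.

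For 9 members the count tables list exons on more than 1 contig, meaning alternate copies of the locus beside the main chromosome. They are TAF4, TAF9, TAF15, CDK7, GTF2H4, GTF2H2, GTF2H2B, GTF2H2C and GTF2H2C_2. TAF4 and TAF15 were listed at 275 to 472 and 95 to 369 fragments in K562, and at 72 to 103 and 0 to 3 reads in HEL. The counts of the others were lower: TAF9, a histone-fold TAF, was listed at 24 to 58 fragments in K562 and at 0 in every HEL library. CDK7, the kinase of TFIIH, was listed at 23 to 33 fragments in K562 and at 0 in HEL, and GTF2H4, a TFIIH core subunit, at 15 to 48 fragments and at 0. In the HEL controls 6 of these 9 members were at 0, against 2 of the 43 members on 1 contig. The median count in the controls was 31.5 in K562 and 0 in HEL for the 9, against 1221 and 781 for the 43. The same held for the tables as a whole: of 1311 genes listed on several contigs 79.3% were at 0 in both HEL controls and 56.4% in both K562 controls, against 39.4% and 35.0% of the 26820 genes on 1 contig. On the main chromosome TAF9 also shares 33.4% of its exonic bases with AK6 on the same strand and 13.5% with RAD17 on the opposite strand. The GTF2H2 genes share exonic bases with one another. How reads that match several contigs or several genes were counted was not tested, and the values of these 9 genes are uncertain.

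**Figure D1:**
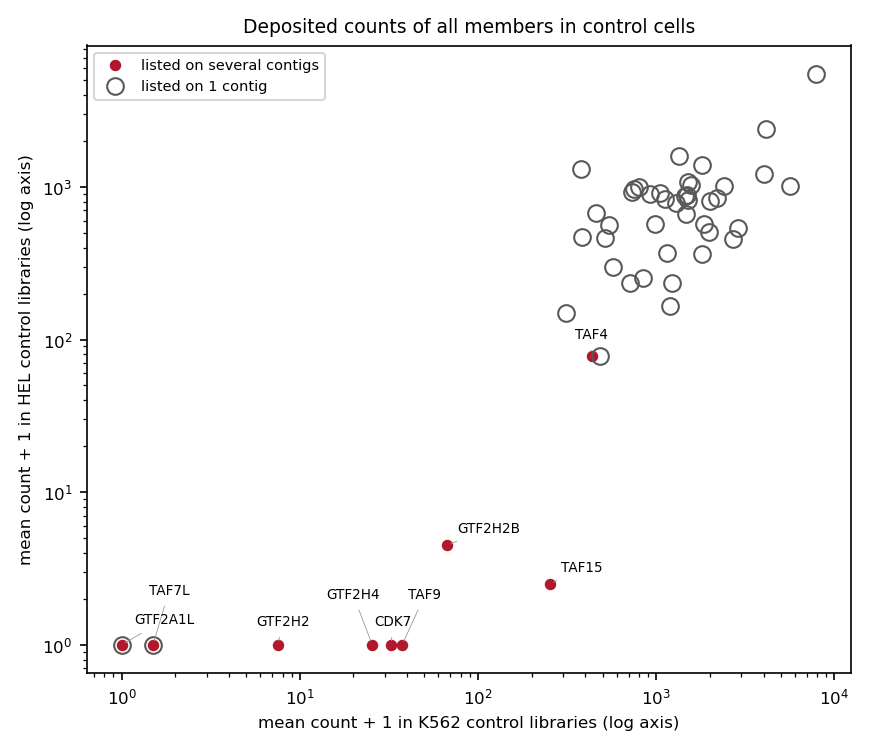
Mean deposited count plus 1 of each of the 52 members in the HEL controls (y axis, log scale) against the K562 controls (x axis, log scale), with members listed on several contigs filled in red. The 6 members of this kind at 0 in HEL lie on the bottom edge. Among them GTF2H2C and GTF2H2C_2 lie at the lower left inside the open circles of GTF2A1L and TAF7L. TAF4 is the 1 red point near the other open circles, which mark members on 1 contig.

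After the filter on low counts 47 members were tested in K562 and 42 in HEL. TAF7L, GTF2A1L, GTF2H2, GTF2H2C and GTF2H2C_2 were tested in neither cell line, and TAF9, TAF15, GTF2H2B, GTF2H4 and CDK7 were not tested in HEL. TAF7L and GTF2A1L, germ cell paralogues of TAF7 and GTF2A1, are listed on 1 contig and were near or at 0 in the controls of both lines. Of the exonic bases of GTF2A1L 93.1% overlap STON1-GTF2A1L on the same strand. How reads shared by these 2 genes were counted was not tested, so the counts of GTF2A1L are uncertain as well.

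In the K562 DOT1L KO 6 of the 47 tested members rose (12.8%, beside 26.9% of all genes) and 12 fell (25.5%, beside 24.2%). In the ENL KO 14 rose (29.8%, beside 18.8% of all genes) and 7 fell (14.9%, beside 22.2%). These shares include 6 members on several contigs, none of them called against a control. Among the 41 tested members on 1 contig 14.6% rose and 29.3% fell in the DOT1L KO. In the ENL KO 34.1% of these 41 rose and 17.1% fell. The TFIID, TFIIH core and kinase module counts below also include members on several contigs. Fewer members were called in both knockouts when either K562 control was left out. That leaves 1 control, and what the smaller group alone takes away was not tested. The shares of all genes in these fits are not given here. Compared directly, 5 members were higher in the DOT1L KO than in the ENL KO (10.6%, beside 31.8%) and 21 were lower (44.7%, beside 28.3%). In HEL with DOT1L KD 7 of 42 members rose (16.7%, beside 27% of all genes) and 17 fell (40.5%, beside 28%). The HEL counts depended on the method: DESeq2 called 2 higher and 6 lower, and upper-quartile scaling gave 12 higher and 10 lower. For all genes in HEL the share of calls that were higher was 49.1%, and 61.4% with upper-quartile scaling. The all-gene counts moved with the method as well. Of 12635 genes tested in HEL the main fit called 3411 higher and 3540 lower. DESeq2 called 2017 and 2544, and upper-quartile scaling 4412 and 2768.

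The changes of most members were small. The median log2 fold change of the tested members was -0.05 in the DOT1L KO, 0.11 in the ENL KO, -0.16 between the knockouts and -0.06 in HEL, where the medians of all genes were 0.01, 0.00, 0.00 and 0.01. The median size of the change, without its sign, was 0.18, 0.18, 0.20 and 0.15 for members and 0.29, 0.25, 0.32 and 0.24 for all genes. Calls that held under every alternative scaling, filter, test and left-out library numbered 13 of 18 in the DOT1L KO, 9 of 21 in the ENL KO, 18 of 26 between the knockouts and 8 of 24 in HEL. No called member changed sign under any of these alternatives. At least 1 comparison with a control was past the threshold for 35 of the 42 members tested in both lines (83.3%, beside 83.9% of all genes tested in both). The 7 that passed in none in the main fit were TAF4, TAF8, GTF2B, GTF2F1, POLR2D, POLR2E and POLR2K. Of these TAF4, TAF8, GTF2F1 and POLR2E were called in at least 1 alternative. Calls gained in an alternative are not given for every member below.

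**Figure D2:**
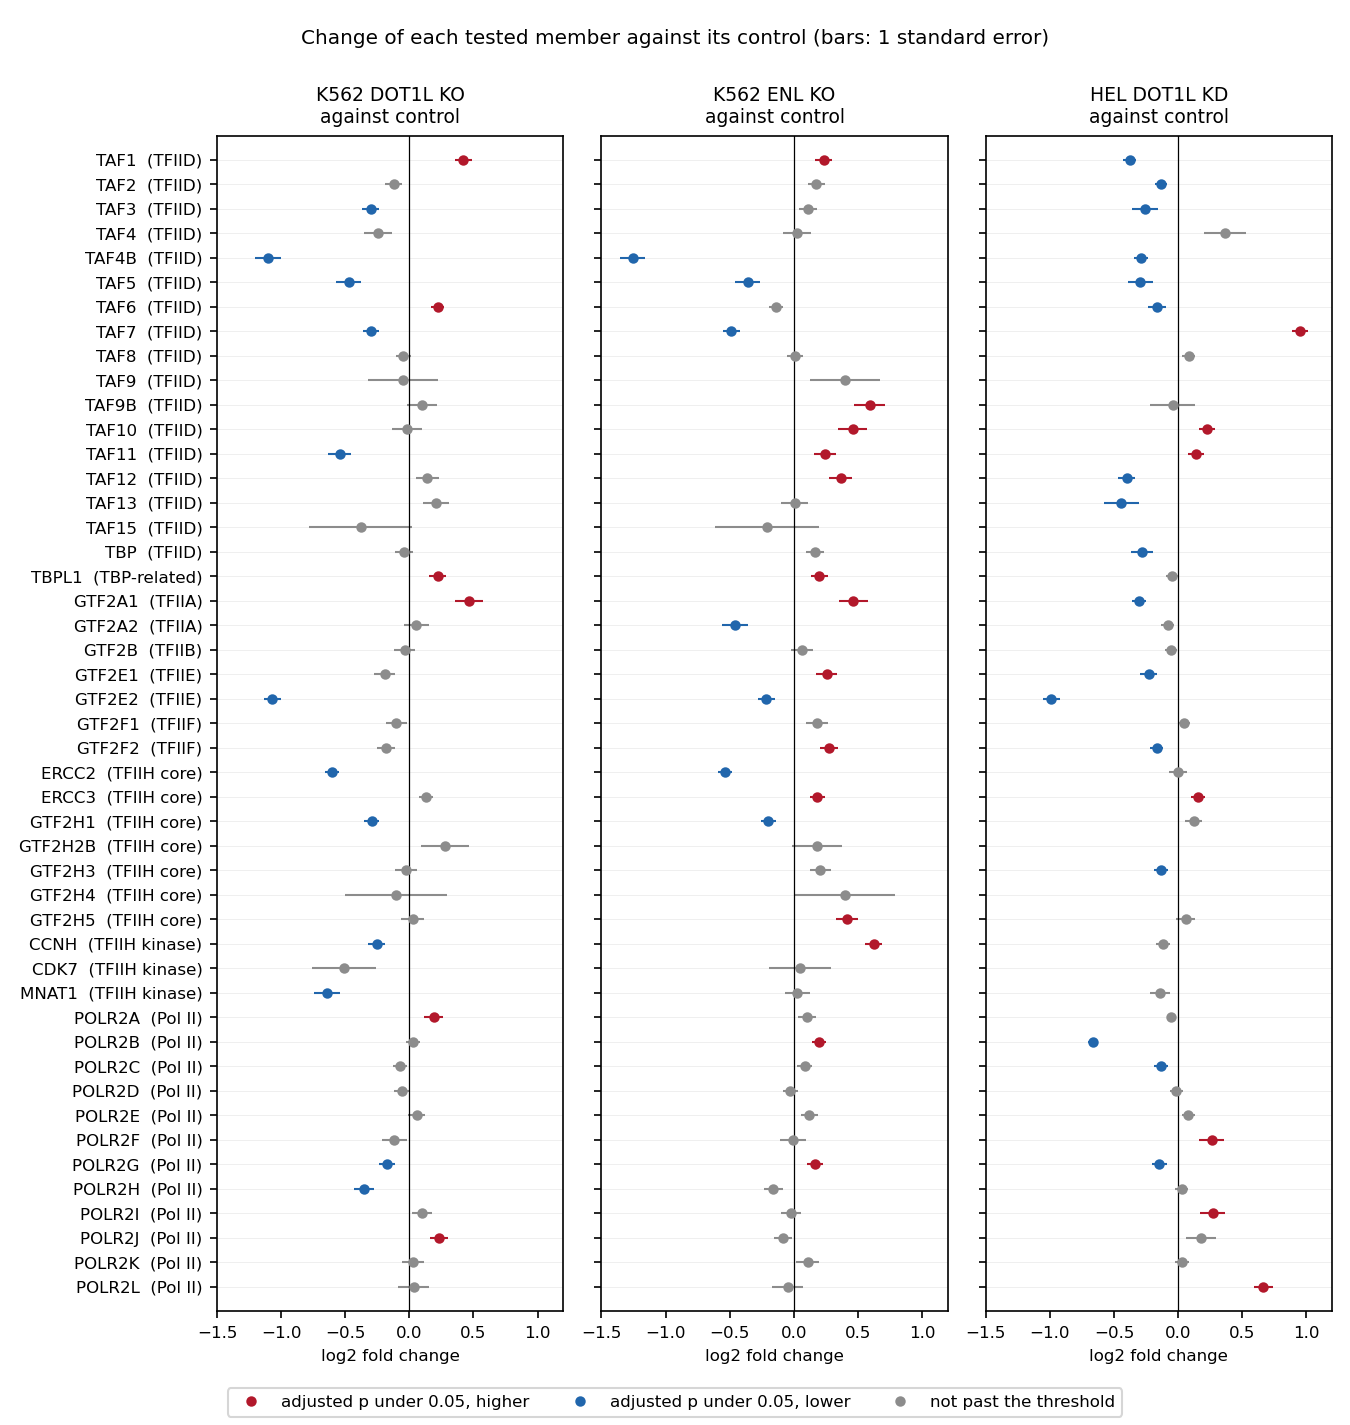
Log2 fold change (points) with its standard error (bars) of each tested member in the K562 DOT1L KO, the K562 ENL KO and the HEL DOT1L KD, each against its own control, ordered by role. GTF2E2 lies near -1 in both DOT1L panels, TAF4B below -1 in both K562 panels, and TAF7 near 1 in HEL alone.

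TFIID subunits were called in both directions. Of 17 tested members 2 rose (11.8%) and 5 fell (29.4%) in the DOT1L KO, beside the 26.9% and 24.2% of all genes. In the ENL KO 5 rose (29.4%, beside 18.8%) and 3 fell (17.6%, beside 22.2%). Between the knockouts 3 were higher (17.6%, beside 31.8%) and 8 lower (47.1%, beside 28.3%) in the DOT1L KO. In HEL 3 of 15 rose (20%, beside 27%) and 9 fell (60%, beside 28%). These counts became 1 and 3 with DESeq2, 5 and 6 with upper-quartile scaling, and 4 and 6 with library totals alone. Of all 12635 genes tested, 3540 fell in the main fit, 2544 with DESeq2, 2768 with upper-quartile scaling and 3180 with library totals alone. Fewer TFIID members were also called without DOT1L KD replicate 2, which leaves 1 KD library.

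TAF4B (chromosome 18, 26226883 to 26391686, plus strand; all gene positions are on GRCh38) is a paralogue of TAF4, a TFIID scaffold subunit, and is best known from germ cells. It stood at 32.7 and 37.3 CPM in the K562 controls, 15.4, 16.4 and 17.2 CPM in the DOT1L KO and 16.0, 14.7 and 13.0 CPM in the ENL KO. All knockout libraries were below both controls. In HEL it stood at 76.0 and 78.98 CPM in the controls and 66.0 and 60.4 CPM in the KD, lower in both KD libraries without overlap. TAF4B fell 2.15-fold in the DOT1L KO (log2 fold change -1.10, SE 0.098, adjusted p = 6.73e-07), 2.39-fold in the ENL KO (-1.26, SE 0.10, adjusted p = 3.97e-07) and 1.22-fold in HEL (-0.29, SE 0.055, adjusted p = 9.22e-06). These 3 calls held in every alternative. The 2 knockouts did not differ past the threshold (0.16, adjusted p = 0.183). TAF4 itself, one of the members with uncertain counts, did not pass the main test against a control in either line. In some alternatives it was called lower in the DOT1L KO or higher in HEL.

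TAF5 (chromosome 10, 103367953 to 103389066, plus strand) is a WD-repeat subunit of the TFIID core. Its K562 controls stood at 24.5 and 29.1 CPM, above the DOT1L KO at 19.6, 18.5 and 19.8 CPM and the ENL KO at 21.7, 18.8 and 22.1 CPM. The HEL controls at 23.5 and 24.1 CPM were above the KD at 19.8 and 19.0 CPM. TAF5 fell by 0.47 on the log2 scale in the DOT1L KO (adjusted p = 0.00126), by 0.36 in the ENL KO (adjusted p = 0.0108) and by 0.29 in HEL (adjusted p = 0.00689). The groups did not overlap in any of the 3 comparisons. In the ENL KO the adjusted p was 0.175 without K562 control 2 and 0.0502 without ENL KO 2 (0.00197 to 0.175 over all alternatives), and in HEL it was 0.106 with DESeq2 and 0.0561 without DOT1L KD 2 (0.0059 to 0.106).

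TAF7 binds TAF1 and restrains its activity, and is encoded by a gene with 1 exon (chromosome 5, 141318490 to 141320784, minus strand) that starts beside the GC-rich window shown above. K562 controls at 127 and 126 CPM exceeded all DOT1L KO (99.7, 112 and 97.4 CPM) and ENL KO libraries (91.2, 87.7 and 92.2 CPM). The HEL controls at 34.4 and 37.9 CPM were below the KD at 67.7 and 72.5 CPM. The log2 fold change was -0.30 in the DOT1L KO (adjusted p = 0.00164) and -0.49 in the ENL KO (adjusted p = 4.62e-05), against 0.95 in HEL (SE 0.064, adjusted p = 1.52e-18), a 1.94-fold rise. All 3 calls held in every alternative. Higher levels in the DOT1L KO than in the ENL KO (0.19, adjusted p = 0.0134) were no longer called without DOT1L KO 2 (adjusted p = 0.0694) or ENL KO 2 (adjusted p = 0.0645; 0.00201 to 0.0694 over all alternatives).

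TAF11 and TAF13 form a histone-fold pair that contacts TBP. TAF11 (chromosome 6, 34877778 to 34888071, minus strand) stood at 70.7 and 67.5 CPM in the K562 controls, fell to 51.8, 48.2 and 42.0 CPM in the DOT1L KO, and stood at 89.5, 78.2 and 77.6 CPM in the ENL KO. The 3 groups did not overlap. The fall in the DOT1L KO (-0.54, adjusted p = 0.000173) and the difference between the knockouts (-0.79, adjusted p = 1.48e-06, 1.73-fold lower in the DOT1L KO) held in every alternative. The rise in the ENL KO (0.24, adjusted p = 0.041) was lost in 6 of 15 alternatives, among them without control 1 (adjusted p = 0.104), control 2 (0.204), ENL KO 1 (0.119), ENL KO 2 (0.0563) and DOT1L KO 2 (0.0542), over a range of 0.000211 to 0.204. In HEL TAF11 moved from 52.8 and 53.4 CPM to 56.3 and 60.7 CPM (0.14, adjusted p = 0.0448), a call lost in 6 of 10 alternatives, with an adjusted p of 0.147 without HEL control 1, 0.0938 without control 2 and 0.387 without DOT1L KD 2 (0.00224 to 0.387). TAF13 did not pass the test in K562 and was lower in HEL (-0.44, adjusted p = 0.00492, and 0.0942 with DESeq2 and 0.0579 without DOT1L KD 2, over a range of 0.00425 to 0.0942). Per kilobase of exon, TAF11 exceeded TAF13 1.76-fold in K562 controls, 1.05-fold in the DOT1L KO and 2.08-fold in the ENL KO, and 1.66-fold in HEL controls against 2.49-fold in the KD.

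TAF1 is the largest TFIID subunit and reads acetylated histones with its bromodomains, and TAF6 is a histone-fold subunit that pairs with TAF9. TAF1 (chromosome X, 71366239 to 71530525, plus strand) stood at 69.5 and 76.9 CPM in the K562 controls, 99.8, 93.5 and 101 CPM in the DOT1L KO and 82.2, 87.2 and 88.6 CPM in the ENL KO. In HEL it moved from 82.6 and 80.7 CPM to 62.3 and 63.3 CPM. Every K562 knockout library was above both controls and each HEL KD library was below both of its controls. TAF1 rose 1.34-fold in the DOT1L KO (0.42, SE 0.066, adjusted p = 0.000138) and fell 1.30-fold in HEL (-0.38, adjusted p = 1.93e-08), and both calls held in every alternative. Its rise in the ENL KO (0.23, adjusted p = 0.0131) was not called without control 1 (adjusted p = 0.176) or ENL KO 2 (0.0543; 0.00437 to 0.176 over all alternatives).

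TAF6 stood at 135 and 136 CPM in the K562 controls, 154, 161 and 159 CPM in the DOT1L KO and 125, 126 and 119 CPM in the ENL KO. Of its exonic bases 5.1% overlap CNPY4 and 3.5% overlap AP4M1, both on the opposite strand. CNPY4 had log2 fold changes of 0.26 (DOT1L KO), -0.36 (ENL KO) and -0.44 (HEL) that did not pass the test. The part of CNPY4 in the TAF6 values was not tested. TAF6 rose in the DOT1L KO (0.22, adjusted p = 0.0038) and was higher there than in the ENL KO (0.36, adjusted p = 2.39e-05). It did not pass the test in the ENL KO (-0.14, adjusted p = 0.0586). With upper-quartile scaling, library totals alone or the replicate block TAF6 was called lower in the ENL KO. In HEL it moved from 43.0 and 42.7 CPM to 39.4 and 36.8 CPM (-0.17, adjusted p = 0.0382). That call was lost in 7 of 10 alternatives, including the leave-outs of HEL control 1 (adjusted p = 0.0961), control 2 (0.0839) and DOT1L KD 2 (0.26), over a range of 0.0321 to 0.26.

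TBP, the DNA-binding subunit of TFIID, stood at 54.3 and 54.0 CPM in the K562 controls, 50.8, 55.3 and 51.5 CPM in the DOT1L KO and 57.4, 61.7 and 63.1 CPM in the ENL KO. Neither knockout passed the test against the controls (-0.04 and 0.17), and TBP was lower in the DOT1L KO than in the ENL KO (-0.21, adjusted p = 0.00975). With the replicate block or without ENL KO 1 TBP was called higher in the ENL KO. HEL controls stood at 29.4 and 28.97 CPM and the KD at 25.0 and 23.0 CPM (-0.28, adjusted p = 0.00447, but 0.0858 with DESeq2 and 0.0699 without DOT1L KD 2, over a range of 0.00364 to 0.0858). TBPL1 replaces TBP at some promoters. It was called higher in the DOT1L KO (0.22, adjusted p = 0.0135, range 0.00198 to 0.124) and in the ENL KO (0.20, adjusted p = 0.029, range 0.00566 to 0.192) and did not pass the test in HEL (-0.05). In the DOT1L KO the call was lost without control 1 (adjusted p = 0.124) or DOT1L KO 2 (0.0541), and in the ENL KO without control 1 (0.192), control 2 (0.0714) or ENL KO 1 (0.0676). Per kilobase TBPL1 exceeded TBP 1.18-fold in K562 controls (1.15 to 1.205), 1.41-fold in the DOT1L KO (1.38 to 1.43) and 1.205-fold in the ENL KO (1.14 to 1.31). In HEL the ratio was 4.39 in controls (4.37 to 4.42) and 5.18 in the KD (4.84 to 5.53).

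TAF9B is a paralogue of TAF9. It stood at 24.8 and 20.7 CPM in the K562 controls, 20.7, 27.7 and 24.4 CPM in the DOT1L KO and 32.1, 35.3 and 35.7 CPM in the ENL KO, where all libraries were above both controls. The ENL KO rose 1.51-fold (0.59, SE 0.12, adjusted p = 0.00131). The DOT1L KO was lower than the ENL KO (-0.49, adjusted p = 0.00101). HEL libraries stood between 5.65 and 6.59 CPM, with no change past the threshold. Among the other TAFs, TAF3, which reads trimethylated lysine 4 of histone H3, fell in the DOT1L KO (-0.30, adjusted p = 0.00207) and, in a call lost in several HEL alternatives, in the KD (-0.26, adjusted p = 0.0306, range 0.0271 to 0.212; 0.157 without HEL control 2, 0.0688 without DOT1L KD 1 and 0.124 without DOT1L KD 2). TAF12, the histone-fold partner of TAF4, rose in the ENL KO (0.37, adjusted p = 0.00525) and fell in HEL (-0.40, adjusted p = 1.51e-06), and both calls held in every alternative. Of the exonic bases of TAF10 7.1% overlap ILK on the opposite strand. TAF10, shared by TFIID and SAGA, rose in the ENL KO (0.46, adjusted p = 0.0057, and 0.0947 without K562 control 2, range 3.45e-06 to 0.0947) and was lower in the DOT1L KO than in the ENL KO (-0.48, adjusted p = 0.00105).

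**Figure D3:**
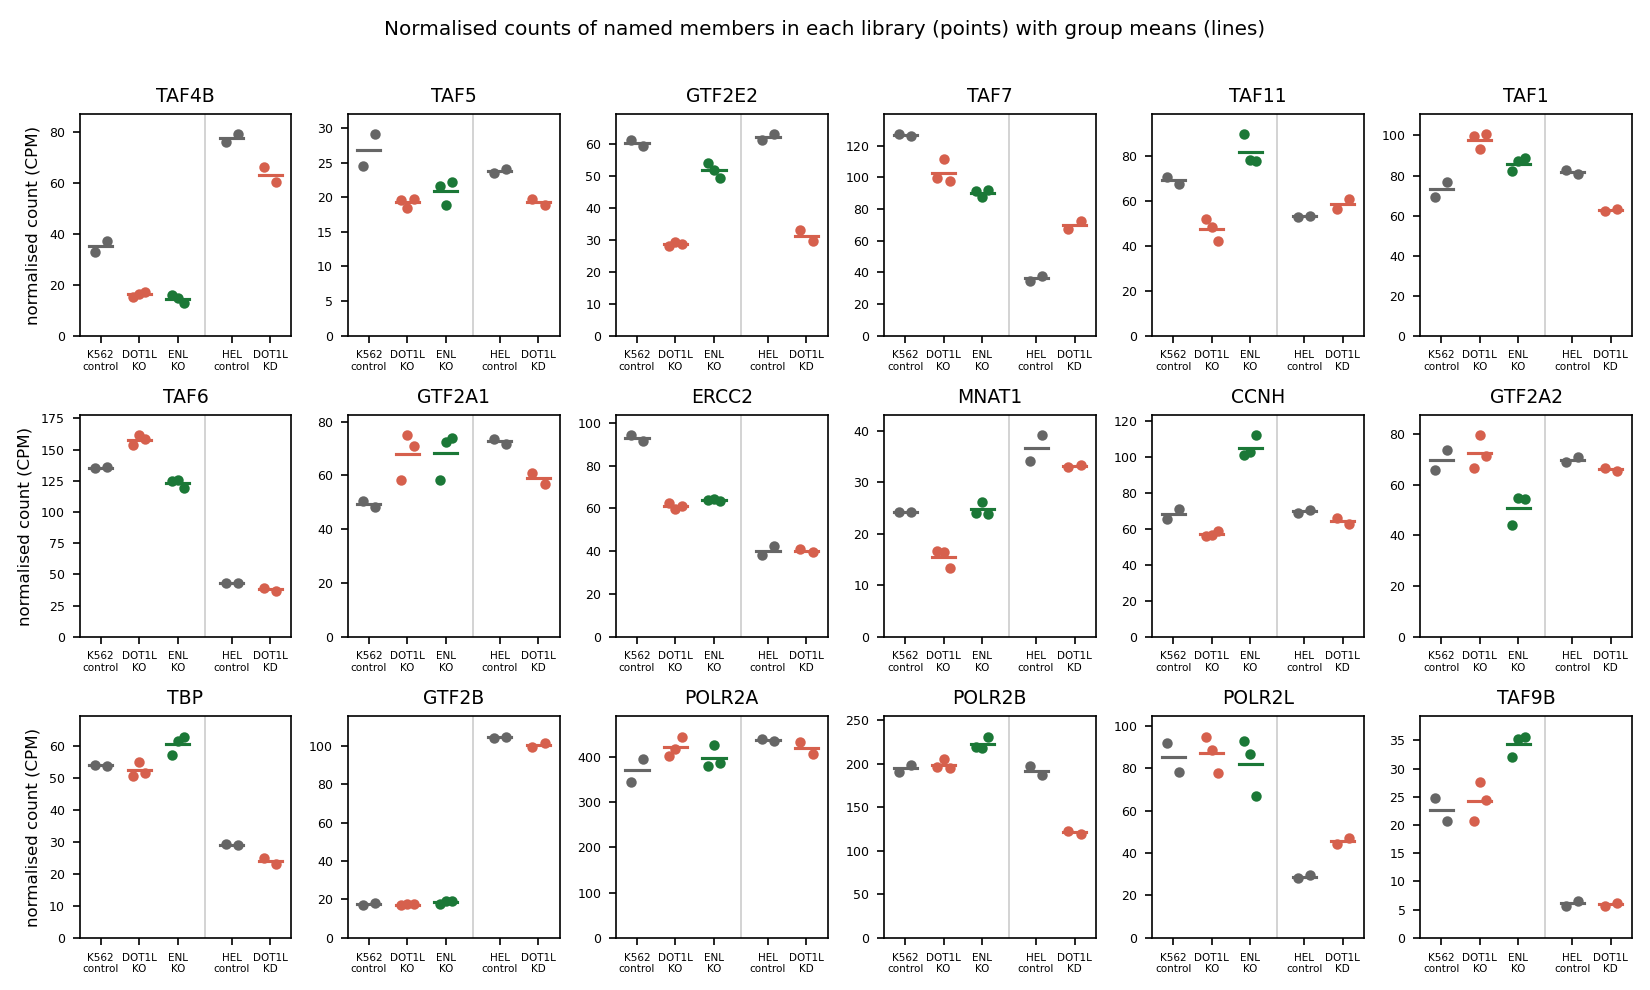
Normalised count (CPM, y axes from 0) of 18 members in each library (points), with group means (lines), for the K562 control, DOT1L KO and ENL KO and, right of the grey line, the HEL control and DOT1L KD. The HEL KD points of TAF7 at 67.7 and 72.5 CPM lie above their controls, while the K562 DOT1L KO points lie below theirs, and GTF2E2 falls in both lines.

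TFIIA and TFIIB hold TBP on the promoter. GTF2A1 (chromosome 14, 81175453 to 81221231, minus strand), the precursor of the 2 larger TFIIA chains, stood at 50.4 and 48.3 CPM in the K562 controls, 58.3, 74.9 and 70.9 CPM in the DOT1L KO and 58.3, 72.6 and 73.9 CPM in the ENL KO. Replicate 1 was the lowest library of each knockout and was still above both controls. GTF2A1 rose by a log2 fold change of 0.47 in each knockout (SE 0.11, adjusted p = 0.00356 with DOT1L lost and 0.005 with ENL lost). In HEL it fell from 73.7 and 71.8 CPM to 60.9 and 57.0 CPM (-0.30, adjusted p = 6.24e-06). These calls held in every alternative.

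GTF2A2, the small TFIIA chain, stood at 66.0 and 73.9 CPM in the K562 controls and 66.6, 79.5 and 71.5 CPM in the DOT1L KO, with overlap. In the ENL KO it stood at 44.2, 54.7 and 54.3 CPM, below every other K562 library. It fell 1.37-fold in the ENL KO (-0.46, SE 0.099, adjusted p = 0.00232) and was higher in the DOT1L KO than in the ENL KO (0.51, adjusted p = 0.000229). HEL moved from 69.1 and 70.9 CPM to 66.7 and 65.5 CPM (-0.08, adjusted p = 0.194). The larger and smaller TFIIA chains had changes of opposite sign in the ENL KO.

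GTF2B, the member with the TATA box printed above, stood at 17.3 and 18.2 CPM in the K562 controls, 16.9, 17.5 and 17.4 CPM in the DOT1L KO and 17.6, 19.1 and 19.0 CPM in the ENL KO. HEL controls stood at 104 and 105 CPM and the KD at 99.3 and 101 CPM. Its log2 fold changes were -0.04, 0.06 and -0.06, and none passed the test. Per kilobase of exon GTF2B was at 11.1 ± 0.40 CPM in K562 controls and 65.2 ± 0.41 CPM in HEL controls (SD, n = 2 each). The tables were normalised separately and count fragments and reads, so this difference between the lines was not tested.

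The smaller TFIIE chain fell by a like amount in both lines with DOT1L depletion, and its fall was the largest among the 42 members tested in HEL. GTF2E2 (chromosome 8, 30578318 to 30658241, minus strand) encodes this chain. It stood at 61.2 and 59.4 CPM in the K562 controls and 28.2, 29.4 and 28.6 CPM in the DOT1L KO. The ENL KO libraries stood between them at 54.2, 52.0 and 49.6 CPM. In HEL GTF2E2 went from 61.3 and 63.1 CPM to 33.1 and 29.5 CPM. The fall was 2.097-fold in the DOT1L KO (-1.07, SE 0.067, adjusted p = 2.19e-08) and 1.99-fold in HEL (-0.99, SE 0.068, adjusted p = 3.26e-18), and the difference between the lines did not pass the test (0.10, adjusted p = 0.508). Against the ENL KO the DOT1L KO was 1.81-fold lower (-0.85, adjusted p = 5.15e-08). The smaller fall in the ENL KO (-0.21, adjusted p = 0.0200) was not called without control 1 (adjusted p = 0.139), control 2 (0.0716) or ENL KO 3 (0.0531; 0.0115 to 0.139 over all alternatives).

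GTF2E1, the larger TFIIE chain, stood near 25.9 and 25.2 CPM in the K562 controls and did not pass the test in the DOT1L KO (-0.19, adjusted p = 0.0687). It was called higher in the ENL KO (0.26, adjusted p = 0.0238), a call lost without control 1 (0.0878), control 2 (0.128) or ENL KO 1 (0.0605; range 0.00559 to 0.128). It was lower in HEL (-0.23, adjusted p = 0.00386, and 0.08 with DESeq2, range 0.0031 to 0.08). Per kilobase of exon GTF2E2 exceeded GTF2E1 2.80-fold in K562 controls (range 2.80 to 2.81), 1.53-fold in the DOT1L KO (1.46 to 1.64) and 2.02-fold in the ENL KO (1.94 to 2.09). In HEL the ratio was 1.65 in controls (1.64 to 1.66) and 0.976 in the KD (0.899 to 1.05). The ranges of depleted and control libraries did not overlap in either line. TFIIF, the GTF2F1 and GTF2F2 pair that escorts Pol II, did not pass the test in the DOT1L KO, with values of -0.10 (adjusted p = 0.322) and -0.18 (adjusted p = 0.0503). GTF2F2 was called higher in the ENL KO (0.27, adjusted p = 0.00859, and 0.0604 without control 1 and 0.0537 without control 2, range 0.00127 to 0.0604). In HEL it was called lower (-0.17, adjusted p = 0.00524, and 0.0577 without DOT1L KD 1 and 0.120 with upper-quartile scaling, range 0.00399 to 0.120). Both chains were lower in the DOT1L KO than in the ENL KO (-0.28, adjusted p = 0.0045, and -0.46, adjusted p = 3.93e-05).

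TFIIH combines a DNA-opening core with the kinase module. Of 7 tested core members 2 fell in the DOT1L KO (28.6%, beside 24.2% of all genes), and 2 rose and 2 fell in the ENL KO (28.6% each, beside 18.8% and 22.2%). ERCC2 (chromosome 19, 45351391 to 45370587, minus strand), the helicase that bridges core and kinase and is also used in nucleotide excision repair, stood at 94.2 and 91.7 CPM in the K562 controls, 62.7, 59.8 and 61.0 CPM in the DOT1L KO and 63.9, 64.6 and 63.7 CPM in the ENL KO. The 2 knockouts lay close together, and all their libraries were below both controls. ERCC2 fell 1.52-fold in the DOT1L KO (-0.60, SE 0.056, adjusted p = 9.99e-07) and 1.45-fold in the ENL KO (-0.54, adjusted p = 5.24e-06). In HEL, at 38.2 and 42.5 CPM in controls and 41.0 and 39.6 CPM in the KD, the groups overlapped (0.00). Of the exonic bases of ERCC2 4.30% overlap KLC3 on the opposite strand. GTF2H1, a core subunit that binds TFIIE, also fell in the DOT1L KO (-0.30, adjusted p = 0.000801). GTF2H5, the smallest core subunit, rose in the ENL KO (0.41, adjusted p = 0.00207) and had log2 fold changes of 0.02 in the DOT1L KO and 0.06 in HEL that did not pass the test.

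In the kinase module the 2 partners of CDK7 differed between the knockouts. MNAT1 (chromosome 14, 60734741 to 60968680, plus strand), which holds CDK7 and cyclin H together, stood at 24.3 and 24.2 CPM in the K562 controls, 16.6, 16.5 and 13.3 CPM in the DOT1L KO and 24.1, 26.2 and 23.8 CPM in the ENL KO. It fell 1.56-fold in the DOT1L KO (-0.64, SE 0.10, adjusted p = 0.000133) and did not pass the test in the ENL KO (0.03). The direct comparison gave -0.67 (adjusted p = 2.74e-05). In HEL it stood at 34.0 and 39.1 CPM in controls and 33.0 and 33.3 CPM in the KD (-0.14, and -0.24 without HEL control 1).

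CCNH (chromosome 5, 87311474 to 87413033, minus strand), which encodes cyclin H, stood at 65.3 and 71.0 CPM in the K562 controls, 56.0, 56.5 and 59.0 CPM in the DOT1L KO and 101, 102 and 112 CPM in the ENL KO. The 3 groups did not overlap. CCNH rose 1.54-fold in the ENL KO (0.62, SE 0.067, adjusted p = 6.43e-06). It fell in the DOT1L KO (-0.25, adjusted p = 0.00612), a call lost without control 2 (adjusted p = 0.0901, with a range of 0.000122 to 0.0901). It was 1.84-fold lower in the DOT1L KO than in the ENL KO (-0.88, adjusted p = 2.44e-08), the widest gap between the knockouts among the 47 members. HEL stood at 69.0 and 70.2 CPM in controls and 65.8 and 62.5 CPM in the KD (-0.12). Of the exonic bases of CCNH 17.9% overlap RASA1 on the opposite strand, and the use of strand in counting is not given in the sources used here. RASA1 had log2 fold changes of 0.53 (DOT1L KO) and 0.35 (ENL KO), and its part in the CCNH values was not tested.

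Of the 12 Pol II subunits, all tested in both lines, 2 rose and 2 fell in the DOT1L KO (16.7% each, beside 26.9% and 24.2% of all genes). In the ENL KO 2 rose (16.7%, beside 18.8%), and in HEL 3 rose and 3 fell (25% each, beside 27% and 28%). POLR2A, the catalytic subunit whose C-terminal domain TFIIH phosphorylates, stood at 344 and 395 CPM in the K562 controls, 402, 417 and 444 CPM in the DOT1L KO and 379, 426 and 386 CPM in the ENL KO. HEL stood at 439 and 434 CPM in controls and 432 and 407 CPM in the KD. Its rise in the DOT1L KO (0.19, adjusted p = 0.0406) rested on single libraries: the adjusted p was 0.425 without control 1, 0.066 without DOT1L KO 2 and 0.126 without DOT1L KO 3 (0.00255 to 0.425 over all alternatives).

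POLR2B (chromosome 4, 56978640 to 57031162, plus strand), the second-largest subunit, stood at 191 and 199 CPM in the K562 controls, 196, 206 and 195 CPM in the DOT1L KO and 219.7, 219 and 231 CPM in the ENL KO. In HEL it fell from 197 and 187 CPM to 123 and 119.6 CPM, 1.58-fold (-0.66, SE 0.041, adjusted p = 6.9e-20), in a call that held in every alternative. The rise in the ENL KO (0.20, adjusted p = 0.0106) was not called without control 1 (adjusted p = 0.107, range 0.00169 to 0.107). Per kilobase, POLR2B stood at 0.702 of POLR2A in HEL controls and 0.462 in the KD, and at 0.845 in K562 controls and 0.755 in the DOT1L KO.

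POLR2L (chromosome 11, 839721 to 842529, minus strand), a small subunit shared by all 3 nuclear polymerases, stood at 91.8 and 78.3 CPM in the K562 controls, 94.8, 88.3 and 77.7 CPM in the DOT1L KO and 92.8, 86.7 and 66.7 CPM in the ENL KO, with overlap between all groups. In HEL it rose from 28.1 and 29.4 CPM to 44.1 and 47.2 CPM, 1.59-fold (0.66, SE 0.074, adjusted p = 5.12e-11), in every alternative. POLR2H, also shared by the 3 polymerases, fell in the DOT1L KO in every alternative (-0.35, adjusted p = 0.00153) and did not pass the test in HEL (0.03). POLR2G, which forms the stalk of Pol II with POLR2D, was called lower in the DOT1L KO (-0.18, adjusted p = 0.0283), higher in the ENL KO (0.17, adjusted p = 0.0437) and lower in HEL (-0.15, adjusted p = 0.0223). The ENL KO call was lost in 13 of 15 alternatives, and the DOT1L KO call without control 1 (adjusted p = 0.18), control 2 (0.0615) or any 1 DOT1L KO library (0.0528, 0.067 and 0.0629). In HEL it was lost without any 1 library (0.0531 to 0.115). The difference of POLR2G between the knockouts held in every alternative (-0.34, adjusted p = 0.000111).

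The response to DOT1L depletion was compared between the lines as the interaction of line and depletion, the HEL log2 fold change minus that of K562. HEL was depleted by knockdown and counted in reads, K562 by knockout and counted in fragments, so that these and the cell line cannot be told apart. The interaction passed the test for 18 of 47 members (38.3%, beside 38.9% of all genes), and 14 of the 18 held in every alternative. The HEL response was higher in 10 (21.3%, beside 19.8%) and lower in 8 (17.0%, beside 19.1%). The 47 include TAF9, CDK7 and GTF2H4, at 0 in every HEL library. Among the 41 tested members on 1 contig the share was 41.5%. Of 42 members tested in both lines 5 had the same call in both DOT1L comparisons, all lower (11.9%, beside 8.76% of all genes lower and 8.33% higher in both): TAF3, TAF4B, TAF5, GTF2E2 and POLR2G. The calls of TAF4B and GTF2E2 held in every alternative in both lines, while the HEL calls of TAF3, TAF5 and POLR2G held in 4, 8 and 3 of 10 and the K562 call of POLR2G in 8 of 15. Another 5 had opposite calls (11.9%, beside 12.6%). TAF7 and TAF11 fell in K562 and rose in HEL, and TAF1, TAF6 and GTF2A1 rose in K562 and fell in HEL. Of these opposite calls those of TAF1, TAF7 and GTF2A1 held in every alternative in both lines.

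Among members on which the interaction was called, it was largest for TAF7 (1.27, SE 0.10, adjusted p = 2.16e-09), followed in size by TAF4B (0.83, adjusted p = 3.96e-06), which fell less in HEL, TAF1 (-0.78, adjusted p = 5.78e-07), GTF2A1 (-0.75, adjusted p = 4.21e-05) and TAF11 (0.70, adjusted p = 3.89e-05). It was -0.68 for POLR2B (adjusted p = 3.07e-07), 0.65 for POLR2L (adjusted p = 0.000403), 0.62 for ERCC2 (adjusted p = 2.37e-05), 0.52 for MNAT1 (adjusted p = 0.00561) and -0.37 for TAF6 (adjusted p = 0.00181). POLR2B and POLR2L changed in HEL and did not pass the test in the K562 DOT1L KO, while ERCC2 and MNAT1 changed in the DOT1L KO and did not pass it in HEL. No interaction was called for TBP (-0.22, adjusted p = 0.116) or TAF5 (0.20, adjusted p = 0.288). That of POLR2A (-0.23, adjusted p = 0.035) was lost without K562 control 1 (adjusted p = 0.328), HEL control 1 (0.116), HEL control 2 (0.079) or DOT1L KD 2 (0.18; 0.000947 to 0.328 over all alternatives).

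**Figure D4:**
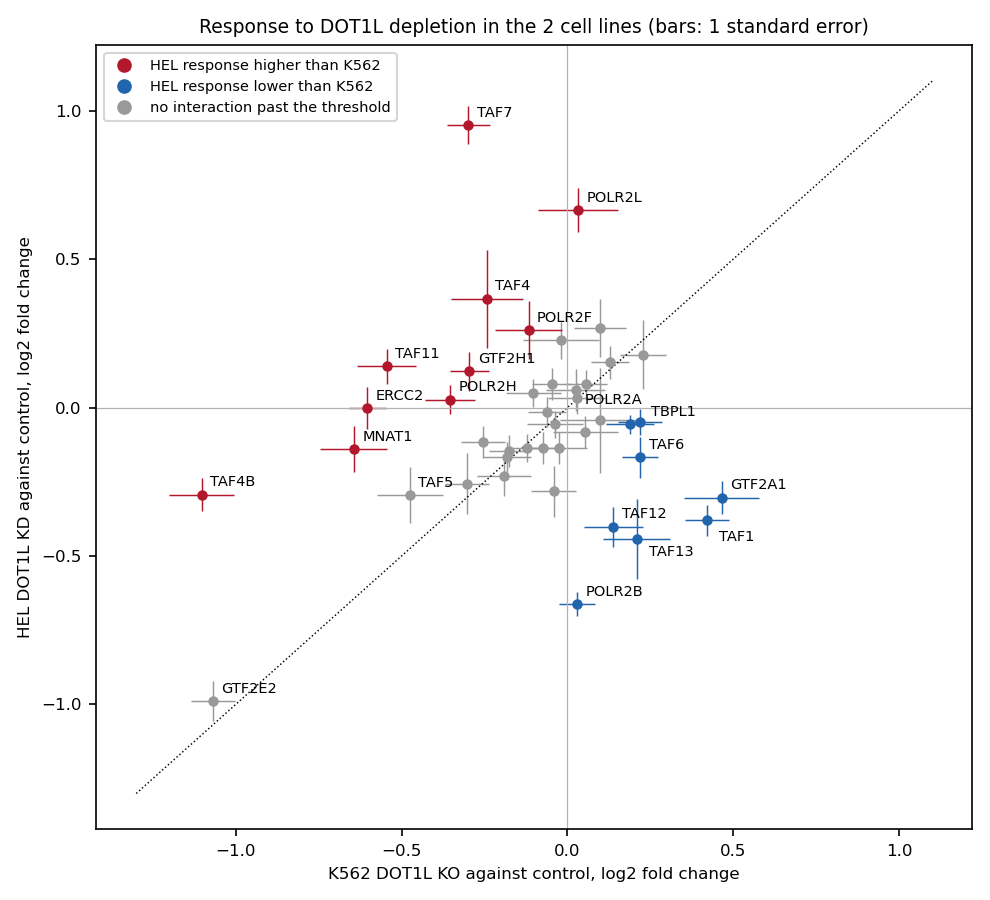
Log2 fold change with DOT1L KD in HEL (y axis) against DOT1L KO in K562 (x axis) for the 42 members tested in both lines, with bars of 1 standard error, a dotted line of equal response, and colours for interactions past the threshold. GTF2E2 lies on the dotted line at -1.07 and -0.99, TAF7 far above it at -0.30 and 0.95, and TAF1 and GTF2A1 below it.

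The knockouts of K562 share their control libraries, so their fold changes are given side by side and not correlated. TAF4B (-1.10 and -1.26), ERCC2 (-0.60 and -0.54) and GTF2A1 (0.47 and 0.47) had close values. GTF2E2 (-1.07 and -0.21), MNAT1 (-0.64 and 0.03), TAF11 (-0.54 and 0.24), CCNH (-0.25 and 0.62) and GTF2A2 (0.05 and -0.46) had values that differed past the threshold in the direct comparison, whose fold change is taken between the knockout libraries, with the controls entering the shared estimate of the spread. All 3 tested kinase module members were lower in the DOT1L KO than in the ENL KO, with CDK7 and its uncertain counts among them (-0.56, adjusted p = 0.0467, called in 1 of 15 alternatives, range 0.0495 to 0.150). Both TFIIE and both TFIIF chains were lower as well. In this comparison 28.3% of all genes and 44.7% of the 47 tested members were lower. The kinase module, TFIIE and TFIIF have only 3, 2 and 2 tested members.

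Levels of different members were compared per kilobase of exon for the 43 members on 1 contig. In K562 controls the highest were POLR2L at 97.1 ± 11 CPM per kb, POLR2E at 87.0 ± 7.2, POLR2I at 75.5 ± 5.5 and GTF2F1 at 73.7 ± 5.8 (SD, n = 2), and neighbours in that order lay within their spread. Of the exonic bases of POLR2E 41.7% overlap ARHGAP45 on the opposite strand, and whether strand was used in counting is not given in the sources used here, so its level is uncertain. The lowest tested members were GTF2H5 at 2.40 ± 0.033, TAF1 at 7.41 ± 0.53, GTF2A1 at 7.61 ± 0.23 and TAF4B at 7.87 ± 0.74 CPM per kb. In HEL controls POLR2G (79.6 ± 0.43), POLR2K (75.5 ± 3.7), TBPL1 (67.3 ± 0.22) and GTF2B (65.2 ± 0.41) were highest, and TAF9B (2.28 ± 0.24), GTF2H5 (5.01 ± 0.053) and POLR2F (5.54 ± 0.41) were the lowest tested. The median over Pol II subunits was 55.7 CPM per kb in K562 controls and 39.5 in HEL controls, and over TFIID members on 1 contig with any count it was 14.8 (15 members) and 15.5 (14 members).

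**Figure D5:**
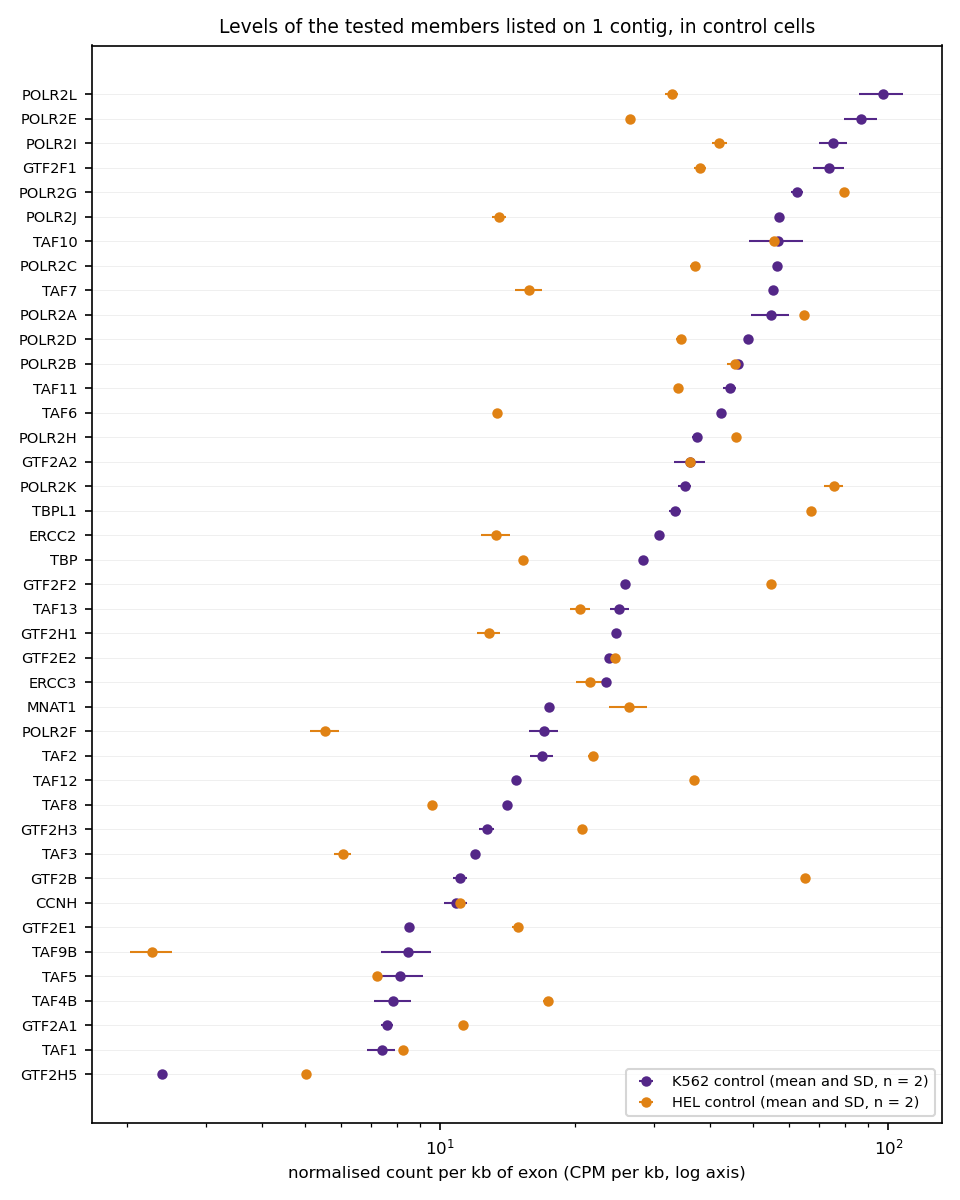
Mean level per kilobase of exon (CPM per kb, x axis, log scale) with SD (bars, n = 2) of the tested members on 1 contig. Colours mark K562 controls and HEL controls, and members are ordered from the top by their level in K562 controls. Pol II subunits lie mostly towards the top. The points of GTF2B lie far apart at 11.1 in K562 and 65.2 in HEL, and the tables were normalised separately.

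Genes of the same pathway outside the members were read from 3 lists of 48 genes. In the DOT1L KO 6 rose and 16 fell (12.5% and 33.3%, beside 26.9% and 24.2% of all genes). In the ENL KO 8 rose and 5 fell (16.7% and 10.4%, beside 18.8% and 22.2%). Between the knockouts 5 were higher and 20 lower in the DOT1L KO (10.4% and 41.7%, beside 31.8% and 28.3%), and in HEL 9 of 46 rose and 15 fell (19.6% and 32.6%, beside 27% and 28%). Of the 15 TBP partners outside TFIID 1 rose and 5 fell in the DOT1L KO. SNAPC1, a subunit of the small nuclear RNA promoter factor, fell there (-1.10, SE 0.14, adjusted p = 2.06e-05). DRAP1, of the NC2 pair that represses TBP, rose (0.51, SE 0.10, adjusted p = 0.00087), and its partner DR1 fell in HEL (-0.64, SE 0.040, adjusted p = 1.67e-19). Of 19 Pol I and Pol III subunits 3 rose and 5 fell in the DOT1L KO. POLR3G, a Pol III subunit known from undifferentiated cells, fell in both knockouts (-1.07 for DOT1L, adjusted p = 4.22e-06, and -0.63 for ENL, adjusted p = 0.000606). Its paralogue POLR3GL rose in the ENL KO (0.64, adjusted p = 0.000124) and had a log2 fold change of -0.01 with DOT1L lost. Of 14 assembly, import and phosphatase factors of Pol II 2 rose and 6 fell in the DOT1L KO, and 3 rose and 4 fell in HEL, where CTDSP2, a phosphatase of the C-terminal domain, fell by 0.62 on the log2 scale (adjusted p = 1.99e-23).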

How the data were processed

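The authors deposited whole-number counts per gene, not normalised: read counts for HEL and fragment counts for K562, per the file headers. The submitters' processing notes name fastp 0.13.1, HISAT2 2.1.0 and featureCounts 1.6.1, with builds hg38 and hg19; the use of strand in counting is not given in the sources used here. Of 74 samples 13 are RNA-seq and 61 were not analysed here. Coordinates are GRCh38, where 51 of 52 members overlapped their RefSeq position. Genes were kept with filterByExpr (minimum count 10, minimum total 15), scaled with TMM and tested with edgeR 4.0.16 in R 4.3.3 by glmQLFTest, all K562 groups in 1 fit of 8 libraries, HEL in another, and the interaction in a joint fit of 9. Adjustment was by Benjamini and Hochberg over all tested genes. The fit was tested on simulated data. No molecular identifiers were used, so floors cover counting error only. Alternatives were DESeq2 1.42.0, 3 other scalings, no filter, a replicate block, fits of only the 2 groups compared and leaving out each library.

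The members and lists were chosen with earlier results of these data known. Members given per library were past the threshold with a log2 fold change of at least 0.5 in size against a control, past it in 1 shared direction in the 3 contrasts with controls, or in opposite directions in both DOT1L comparisons, or encode targets of the series' antibodies (TBP, GTF2A2, GTF2B, POLR2A). Pathway examples outside the members were picked after their values were seen. Other members with values fall outside that rule and were likewise chosen after their values were seen.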

Additional observations from a re-analysis of the deposited data

Results flagged for a closer look

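For 11 of the 18 members given per library the response to DOT1L depletion differed between the lines by the interaction test of edgeR, as the HEL minus the K562 log2 fold change: TAF7 1.27, TAF4B 0.83, TAF11 0.70, POLR2L 0.65, ERCC2 0.62, MNAT1 0.52, POLR2A -0.23, TAF6 -0.37, POLR2B -0.68, GTF2A1 -0.75 and TAF1 -0.78. The interaction was called for 38.9% of all genes. TAF1, TAF6, TAF7, TAF11 and GTF2A1 were among the 18 because their calls in the 2 lines were opposite, so their difference is built into the choice. TAF4B, ERCC2, MNAT1, POLR2B and POLR2L entered with a called log2 fold change of at least 0.5 in size in 1 DOT1L comparison. That value is part of their interaction, so 11 of 18 cannot be set against the share of all genes. POLR2A entered as an antibody target. The call for POLR2A was lost without K562 control 1 (adjusted p = 0.328 by edgeR), HEL control 1 (0.116), HEL control 2 (0.079) or DOT1L KD 2 (0.18). Cell line, knockdown against knockout, and read against fragment counting cannot be told apart in this difference.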

How the results depend on the processing

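Counts of members called in HEL moved most: of 7 higher and 17 lower, DESeq2 gave 2 and 6, upper-quartile scaling gave 12 and 10, library totals gave 11 lower, and no filter gave 4 higher. For all 12635 genes tested in HEL edgeR called 3411 higher and 3540 lower, and DESeq2 2017 and 2544. Upper-quartile scaling called 4412 and 2768 of all genes, library totals 3180 lower, and no filter 2669 of 17650 higher. Leaving out each library in turn gave 3 to 7 higher and 10 to 13 lower in the DOT1L KO (3 without control 1), 6 to 14 and 4 to 9 in the ENL KO (6 higher without control 1, 7 higher and 4 lower without control 2), 4 to 6 and 16 to 20 between the knockouts, 4 to 5 and 8 to 14 in HEL (4 higher without control 2 or DOT1L KD 1, 8 lower without DOT1L KD 2), and 15 to 20 interactions. With the replicate block the counts were 7 and 14, 19 and 8, 6 and 20, 7 and 17, and 18. Libraries were also compared by how far each gene deviated from its group mean. In these deviations same-numbered K562 knockouts correlated at 0.435, 0.0838 and 0.201. Controls correlated with same-numbered DOT1L KO libraries at 0.267 and 0.179, and with same-numbered ENL KO libraries at 0.291 and 0.0721. Across different numbers replicate 1 libraries of K562 correlated negatively, while DOT1L KO 2 correlated with ENL KO 3 at 0.185. Deviations within a group cancel, so the negative values follow in part from the positive ones and are not a separate observation. HEL deviations of the same number correlated at -0.00692. The main fit used no pairing, and a batch shared by replicate 1 was not tested. With the block 4323 and 4017 of all genes were called in the DOT1L KO (3846 and 3459 without it). No called member changed sign. Leaving out a control of either line or a HEL KD library leaves 1 library in its group. The counts of all genes in the leave-out fits are not given here. CDK7 and TAF9 had at most 33 and 58 counted fragments per library in K562, and what depth alone limits there was not tested.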
